A study of Mus musculus with 6 samples.

Results

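Gpr34 and 6 purinergic receptor genes of microglia, P2ry6, P2ry12, P2ry13, P2ry14, P2rx4 and P2rx7, were followed in BV2 cells exposed to interleukin-4 (IL-4). BV2 is an immortalised mouse microglial line, so all arrays come from 1 cell line grown in serum. The 7 genes had 9 of the 39429 non-control probes on the array, which stood for 32451 genes or transcripts; a probe was taken as a member when its target transcript belonged to 1 of the 7 symbols. The genes were chosen with the IL-4 against PBS values of these arrays in view, so their values in that contrast are given as a description; counts of limma calls among them stand beside the share over all genes and are not read as a test of them. IL-4 cells received recombinant murine IL-4 at 10 ng/ml for 24 hr (3 samples), and PBS cells received the PBS vehicle for 24 hr (3 samples); both were plated on poly-L-lysine. The series' design text calls the second group untreated, whereas the sample labels say PBS, and a description label mentions human blood beside the mouse line. Total RNA of each sample was hybridised to 1 single-colour Cy3 array, and no label says whether the 3 samples of a group were separate cultures, so a p-value here speaks of the spread of these arrays alone, some or all of which may be technical.

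Purinergic receptors let microglia read nucleotides that other cells release. P2Y receptors couple to G proteins and P2X receptors are cation channels opened by ATP. In microglia, P2ry12 is known for steering processes towards ADP, P2ry6 for UDP-evoked uptake of debris, and P2rx7 for starting interleukin-1β release at high ATP. Gpr34 is an X-linked G protein-coupled receptor related in sequence to the P2Y12-like group, and lysophosphatidylserine is its reported ligand.

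Arrays with the same scan date in their file headers were taken as 1 slide. On that basis the 4 arrays IL-4 1, IL-4 2, IL-4 3 and PBS 1 shared slide 1, and PBS 2 and PBS 3 were on slide 2. Between 87.9% and 97% of probes in IL-4 samples, and between 89.4% and 98.0% in PBS samples, were well above background, and no spot was saturated. Levels are log2 of the processed signal minus the array's 75th percentile, which lay between 674 and 876 signal units; the number of arrays limits the precision. The median absolute log2 difference between 2 arrays of a group was 0.101 to 0.138 for IL-4. For PBS it was 0.127 between the 2 arrays of slide 2, but 0.239 and 0.240 between PBS 1 and either of them. Differences between the groups are therefore also given within slide 1, as the IL-4 mean minus PBS 1. Over all 29752 tested genes the median log2 difference was -0.05, and within slide 1 it was 0.0055.

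The microglial label was checked against 11 markers, of which all were tested. By limma at an adjusted p under 0.05, 2 were lower with IL-4, beside 2.54% of all tested genes. They were the calcium-binding protein Aif1 (log2 difference -0.72, within slide 1 -0.49) and the signalling adaptor Tyrobp (-0.95, within slide 1 -0.54). Both are named here after their values were seen, and slide as a block ended both calls (limma adjusted p over probes = 0.25 and 0.24). The summed level of the 11, on a linear scale relative to the 75th percentile, was 61.6 to 66.5 in IL-4 samples and 68.8 to 83.2 in PBS samples, and the list's median log2 difference was -0.39, or -0.21 within slide 1. Each gene was read from 1 probe, and other probes could differ. Other Csf1r probes gave 0.45 (0.21 within slide 1) and -0.31 (-0.16), against -0.47 for the one used. A second Cx3cr1 probe gave 1.05 (-0.003 within slide 1) against -0.19, but was well above background on only 2 of 3 PBS arrays. Other Itgam probes gave 0.08 and -0.08, against 0.02. No marker was listed at 0; Sall1, a microglial transcription factor, was well above background on 2 of 3 IL-4 and 3 of 3 PBS arrays. Of 28 tested markers of astrocytes, neurons, oligodendrocytes, endothelial cells, fibroblasts, T cells and B cells, 0 passed limma's test, beside 3.35% of all tested genes. At an unadjusted p under 0.05, 8 were higher and 2 lower, beside 16.6% and 17.5% of all tested genes. These counts compare the groups, not levels between cell types. Of these lists the endothelial one had the highest summed level, 9.93 to 13.3 in IL-4 and 10.0 to 14.8 in PBS samples. Its Pecam1 probe had mean log2 levels of 3.40 and 3.48, beside 3.33 and 3.80 for Csf1r and -3.63 and -3.24 for the microglial marker Tmem119. The brighter Aqp4 probe, of astrocytes, had 3.66 and 3.58 but no PBS 3 value, and the other -2.30 and -3.20. The 4 T cell markers had a median log2 difference of 0.98, and of 0.28 within slide 1. The 3 of them measured on all arrays (Cd4 was not) had a summed level of 1.47 to 1.57 in IL-4 samples and 0.609 to 1.18 in PBS samples. That median rests on 1 probe per gene. A second Cd4 probe, with 10 copies, gave 0.08 against 1.42 for the one used, and a second Cd8a probe 0.37 against 0.30. The Cd3g probe was well above background on only 2 of 3 PBS arrays. The part of these markers in the receptor values was not tested. In RNA from a whole culture, fewer cells with a transcript and less of it per cell cannot be told apart.

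Gpr34 had the lowest log2 difference of all 29752 tested genes. Its 1 probe (transcript NM_011823, chromosome X) gave processed signals of 29.1, 49.8 and 46.8 units in IL-4 samples 1, 2 and 3, against 150, 113 and 156 units in PBS samples 1, 2 and 3. On the log2 scale relative to the 75th percentile the levels were -4.64, -4.11 and -3.97 in IL-4 samples and -2.55, -2.58 and -2.22 in PBS samples. Every IL-4 array lay below every PBS array, and the groups were separated by more than the spread within either of them. The means were -4.24 ± 0.35 in IL-4 samples and -2.45 ± 0.20 in PBS samples (SD, n = 3 each), a log2 difference of -1.79 ± 0.19 (SE), which is 3.45-fold lower. Within slide 1 the log2 difference was -1.69, the 3rd lowest of all genes tested there, and PBS 1 lay only 0.15 below the mean of the other 2 PBS arrays.

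The Gpr34 spot was dim, and the size of its difference moved with how the signal was made. Before correction its median pixel values were 74, 82 and 79 in IL-4 samples and 182, 172 and 203 in PBS samples, over a local background of 13 to 16.5. The scanner program's own error was 11.1% to 16.3% of the processed signal in IL-4 samples and 10.1% to 10.4% in PBS samples. With normexp, which started from spot medians, modelled the background and added an offset of 50, the log2 difference was -1.03, and with plain subtraction of the local background, a setting added after the data were seen, it was -1.43. Gpr34 then ranked 21st and 1st from the lowest of all tested genes. It ranked 2nd with the authors' deposited table, and 3rd without IL-4 2 or without IL-4 3. Which of these steps moved the value was not tested. The direction was the same in each, and the IL-4 spots were well above background on all 3 arrays.

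**Figure D1:**
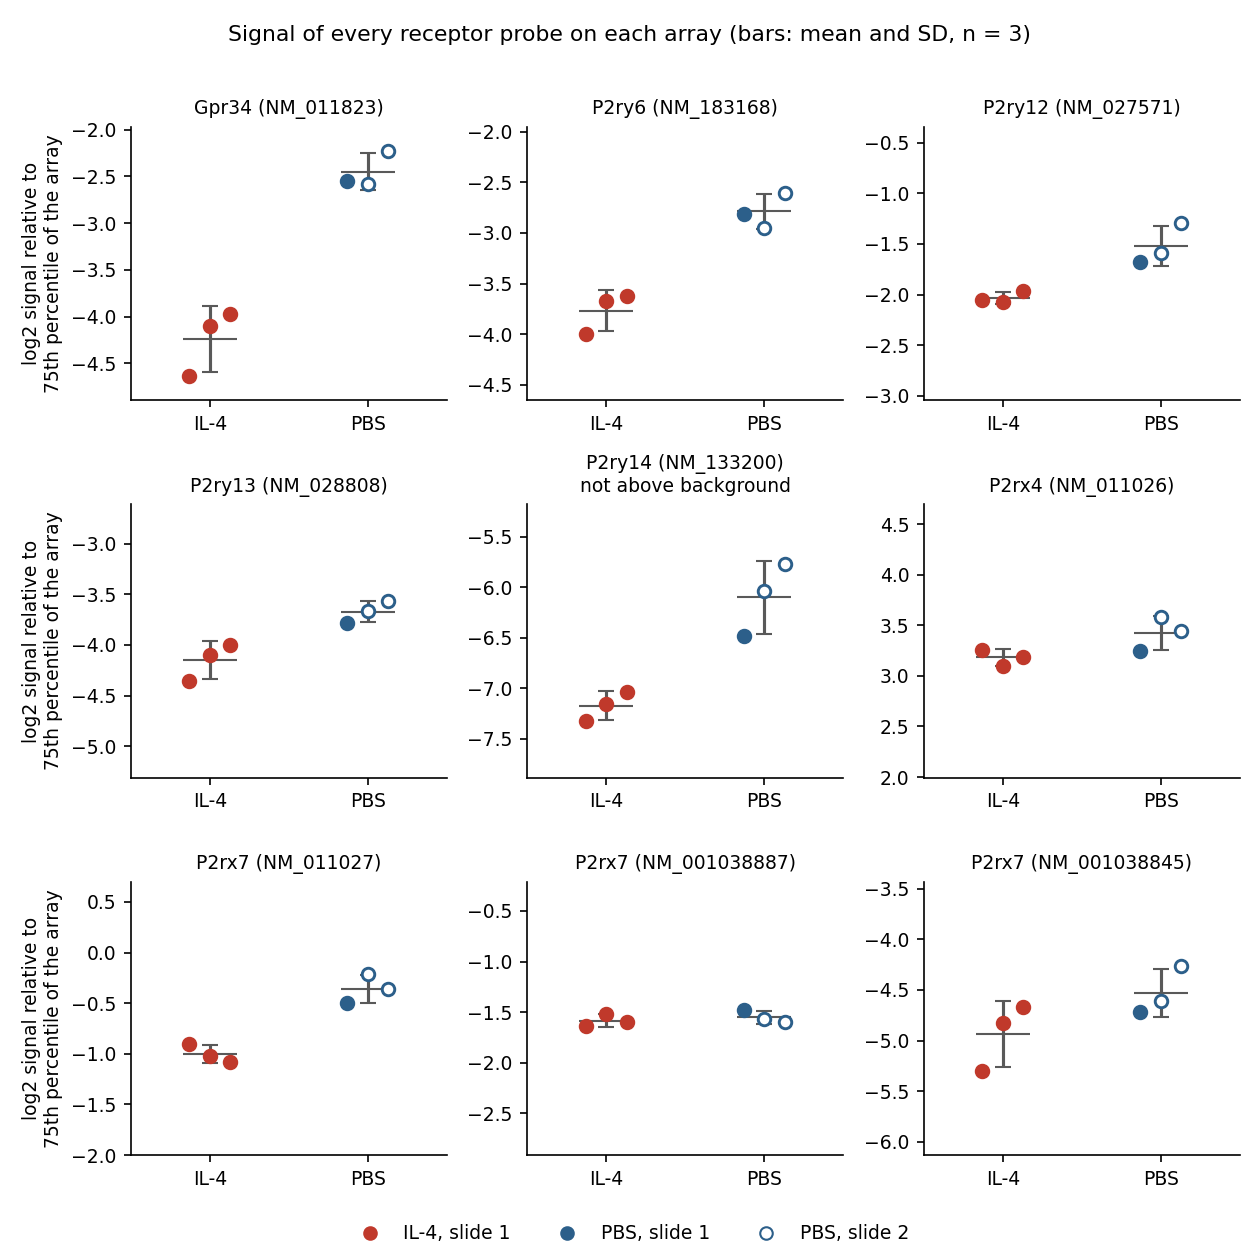
Levels of the 9 probes of the 7 receptor genes, as log2 processed signal relative to the array's 75th percentile, with 1 point per array, IL-4 left of PBS, and lines at each group's mean with bars of 1 SD (n = 3). PBS arrays of slide 2 are drawn open; Gpr34, P2ry6, P2ry12, P2ry13 and the NM_011027 probe of P2rx7 have every IL-4 point below every PBS point, and the P2ry14 probe was not well above background on any array.

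P2ry6, the Gq-coupled receptor for UDP, was read by 10 copies of 1 probe (NM_183168, chromosome 7), which gave the error within an array. The mean processed signal of the copies used was 45.6, 67.0 and 59.4 units in IL-4 samples 1, 2 and 3, against 125, 87.4 and 119 units in PBS samples 1, 2 and 3. The highest copy used on any IL-4 array read 70.1 units, and the lowest on any PBS array 83.0 units, so no copy used on an IL-4 array reached a copy used on a PBS array. The 2 copies left out for an outlier flag read 70.4 units on IL-4 3 and 60.7 units on PBS 2. The SD between copies was 0.060 to 0.106 on the log2 scale. That is less than the SD between samples, 0.20 for the IL-4 and 0.17 for the PBS levels. The mean levels were -3.77 ± 0.20 in IL-4 samples and -2.79 ± 0.17 in PBS samples (SD, n = 3 each, log2 relative to the 75th percentile). The log2 difference was -0.98 ± 0.14 (SE), which is 1.97-fold lower, and within slide 1 it was -0.96. PBS 1 and the mean of the slide 2 arrays were 0.03 apart. With normexp and the same scaling the log2 difference was -0.58.

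**Figure D2:**
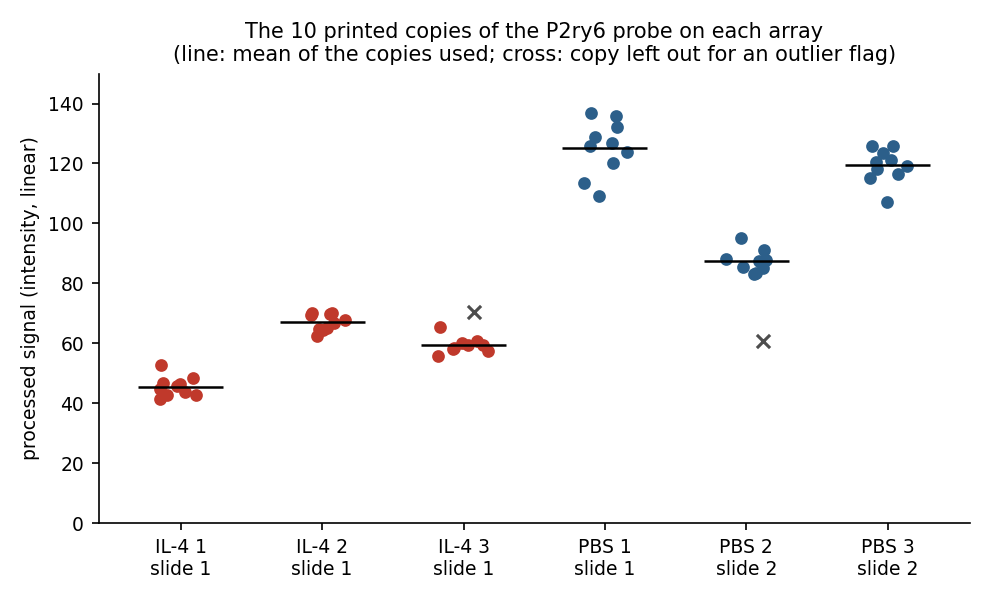
Processed signal (linear scanner units) of each copy of the P2ry6 probe on each array, IL-4 arrays left of PBS arrays, with the slide in the axis labels. The copies used lie between 41.5 and 70.1 units on the IL-4 arrays and between 83.0 and 137 units on the PBS arrays; crosses mark the 2 copies left out for an outlier flag, at 70.4 units on IL-4 3 and 60.7 units on PBS 2, and lines the mean of the copies used.

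P2ry12, P2ry13 and P2ry14 lie close together on chromosome 3 in the RefSeq gene order (assembly GRCm38.p6). P2ry12 and P2ry13 are receptors for ADP, and P2ry14 is a receptor for UDP-glucose. The 250 bases before the RefSeq start of the adjacent pair P2ry12 and P2ry13 are shown because their levels differed between the groups by a like amount. The P2ry12 stretch is chr3:59262986-59263235 and the P2ry13 stretch chr3:59210883-59211132, both on the minus strand of GRCm38.p6 and written 5′ to 3′. Capitals mark GGAAGT, a core that factors of the ETS family such as PU.1 can bind.
P2ry12: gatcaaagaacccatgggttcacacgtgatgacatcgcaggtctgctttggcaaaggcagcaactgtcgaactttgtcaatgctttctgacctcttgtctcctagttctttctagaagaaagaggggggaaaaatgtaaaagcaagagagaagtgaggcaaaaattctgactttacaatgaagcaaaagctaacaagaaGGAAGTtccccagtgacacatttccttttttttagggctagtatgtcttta
P2ry13: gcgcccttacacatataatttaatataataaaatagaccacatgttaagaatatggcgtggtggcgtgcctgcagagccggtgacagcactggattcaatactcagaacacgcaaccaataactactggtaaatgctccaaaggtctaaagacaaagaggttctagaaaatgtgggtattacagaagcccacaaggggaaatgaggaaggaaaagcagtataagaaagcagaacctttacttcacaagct
GGAAGT, searched on both strands, was in 2 of the 9 stretches available for 5 of the 7 genes, those of P2ry12 and of 1 of the P2ry14 starts, and in 19.7% of 32851 RefSeq promoters cut to the same length. In P2ry12 it lies at bases -51 to -46 from the start. The longer GAGGAAGT, which contains GGAAGT, was in 0 of the 9 and in 2.44% of all promoters. TTC and GAA with any 4 bases between them, the spacing that STAT6 prefers, stood in 0 of the 9 and 5.85% of all, and with 3 bases between them, the spacing other STAT factors prefer, in 0 and 7.02%. These counts describe letters in these windows. No window was available for Gpr34 or P2ry6, so the counts do not cover them.

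P2ry12 levels were -2.06, -2.07 and -1.97 in IL-4 samples 1, 2 and 3, against -1.68, -1.59 and -1.29 in PBS samples 1, 2 and 3 (log2 relative to the 75th percentile, probe for NM_027571). All 3 IL-4 arrays lay below all 3 PBS arrays, and PBS 1 was the PBS array closest to them. The means were -2.03 ± 0.06 in IL-4 samples and -1.52 ± 0.20 in PBS samples (SD, n = 3 each), a log2 difference of -0.51 ± 0.13 (SE) and of -0.35 within slide 1. P2ry13 levels (probe for NM_028808) were -4.36, -4.09 and -4.00 in IL-4 samples and -3.78, -3.66 and -3.57 in PBS samples. Again no IL-4 array reached a PBS array, and PBS 1 was the lowest of the PBS arrays. Its means were -4.15 ± 0.19 in IL-4 samples and -3.67 ± 0.11 in PBS samples (SD, n = 3 each), a log2 difference of -0.48 ± 0.13 (SE) and of -0.37 within slide 1. With normexp the log2 difference of P2ry13 was -0.25, or -0.21 with quantile normalization as well. For both genes PBS 1 lay below the mean of the slide 2 arrays, by 0.24 for P2ry12 and 0.17 for P2ry13.

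The P2ry14 probe (NM_133200) was not well above background on any of the 6 arrays, so no fold is given and it was not tested. Its processed signals were 4.53, 6.02 and 5.58 units in IL-4 samples and 9.79, 10.2 and 13.3 units in PBS samples. These lie below the lowest signal that counted as well above background on the same arrays, and they set only an upper bound in both groups.

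P2rx4 and P2rx7 encode ATP-gated channel subunits and are next to each other on chromosome 5 in the RefSeq order. P2rx4 opens at low ATP and P2rx7 at high ATP. The 250 bases before the P2rx4 start, chr5:122707294-122707543, and before the farther upstream of 2 P2rx7 starts, chr5:122643677-122643926, both on the plus strand of GRCm38.p6, are shown because the P2rx4 probe and the brightest P2rx7 probe differed in how far the groups were separated. The other 2 P2rx7 probes overlapped between the groups, as P2rx4 did, and probes were not matched to starts. The stretches are written 5′ to 3′, and none of the searched letters was found in them.
P2rx7: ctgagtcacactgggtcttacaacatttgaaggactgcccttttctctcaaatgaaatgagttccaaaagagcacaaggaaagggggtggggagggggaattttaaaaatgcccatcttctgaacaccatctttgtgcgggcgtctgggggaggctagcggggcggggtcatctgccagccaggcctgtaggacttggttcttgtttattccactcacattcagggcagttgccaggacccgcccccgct
P2rx4: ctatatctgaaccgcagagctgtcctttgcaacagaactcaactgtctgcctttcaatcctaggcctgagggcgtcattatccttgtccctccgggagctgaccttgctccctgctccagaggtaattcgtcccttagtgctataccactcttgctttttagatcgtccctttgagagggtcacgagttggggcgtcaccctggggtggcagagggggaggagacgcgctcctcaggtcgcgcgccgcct
The P2rx7 probe for NM_011027 gave levels of -0.91, -1.02 and -1.08 in IL-4 samples 1, 2 and 3, against -0.50, -0.22 and -0.36 in PBS samples 1, 2 and 3 (log2 relative to the 75th percentile). No IL-4 array reached a PBS array. The means were -1.002 ± 0.087 in IL-4 samples and -0.36 ± 0.14 in PBS samples (SD, n = 3 each), a log2 difference of -0.64 ± 0.11 (SE), which is 1.56-fold lower, and of -0.50 within slide 1.

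The other 2 P2rx7 probes, whose targets are the transcripts NM_001038887 and NM_001038845, gave other values. The NM_001038887 probe read -1.64, -1.51 and -1.60 in IL-4 samples and -1.48, -1.57 and -1.60 in PBS samples. Its groups overlapped, with means of -1.58 ± 0.06 in IL-4 samples and -1.55 ± 0.06 in PBS samples (SD, n = 3 each) and a log2 difference of -0.03 ± 0.10 (SE), or -0.10 within slide 1. The NM_001038845 probe was dim, well above background on 2 of 3 IL-4 and 3 of 3 PBS arrays, and its groups overlapped too (log2 difference -0.41 ± 0.19, SE; -0.22 within slide 1). Taken within each array, NM_011027 minus NM_001038887 was 0.58 ± 0.13 in IL-4 samples and 1.19 ± 0.19 in PBS samples (SD, n = 3 each), so the 2 probes changed unequally by 0.61 on the log2 scale, and by 0.40 within slide 1. With the mean of its probes in place of the brightest, P2rx7 had a log2 difference of -0.36 and was not among the 2.03% of genes that limma then called. Which exons each probe covers was not analysed here.

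P2rx4 was bright, with processed signals of 6961, 7345 and 6678 units in IL-4 samples and 8320, 8053 and 7880 units in PBS samples. Relative to the 75th percentile the log2 levels were 3.26, 3.10 and 3.19 in IL-4 samples and 3.25, 3.58 and 3.44 in PBS samples (probe for NM_011026). PBS 1 lay among the IL-4 arrays on that scale, so the groups overlapped. The means were 3.18 ± 0.08 in IL-4 samples and 3.42 ± 0.17 in PBS samples (SD, n = 3 each), a log2 difference of -0.24 ± 0.12 (SE). Within slide 1 the difference was -0.07.

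**Figure D3:**
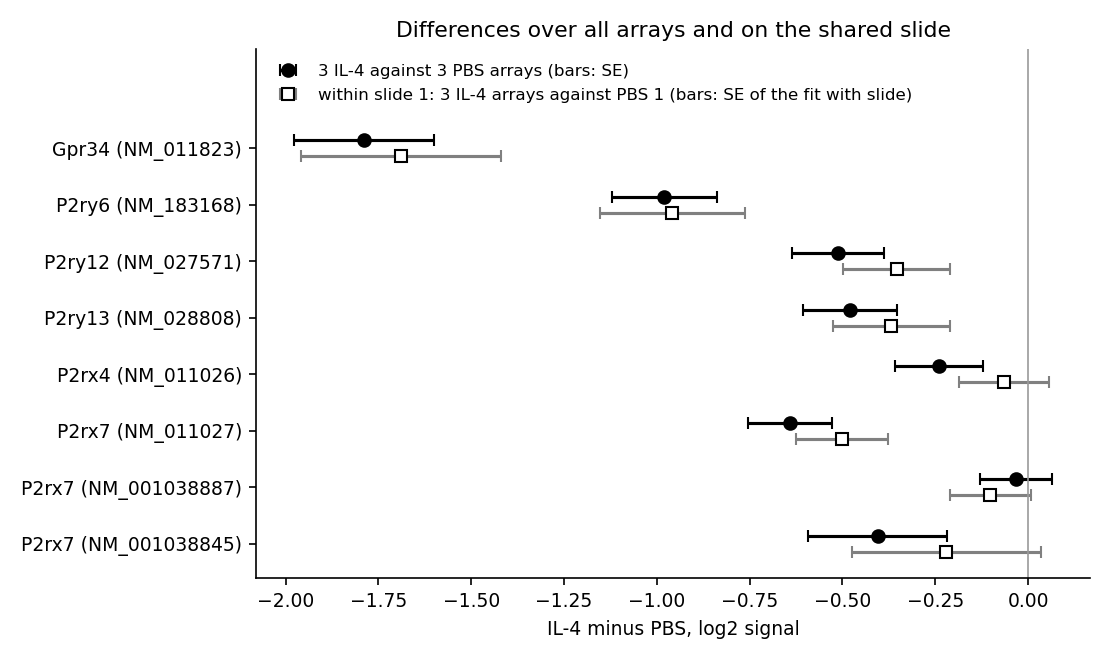
Log2 difference, IL-4 minus PBS, of each receptor probe that was tested, over all arrays and within slide 1 (IL-4 mean minus PBS 1), with bars of 1 SE, which for slide 1 come from the fit with slide as a block. All the differences shown are below 0, with Gpr34 at -1.79 and -1.69, and P2rx4 at -0.24 and -0.07.

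Of the 7 genes, 6 passed the filter on dim probes, which asks for signal well above background on all 3 arrays of IL-4, of PBS or of both, and P2ry14 did not. Limma called 3 of the 6 lower with IL-4 at an adjusted p under 0.05 (Gpr34, P2ry6 and P2rx7) and 0 higher, where it called 2.54% of all tested genes lower and 0.807% higher, 3.35% in all; at an unadjusted p under 0.05, 5 of the 6 were lower and 0 higher, beside 17.5% lower and 16.6% higher of all tested genes. All 3 IL-4 arrays lay below all 3 PBS arrays for 5 of the 6, where that held for 20.0% of the genes measured on every array and the opposite for 18.3%. All 3 IL-4 arrays lay below PBS 1 on the same slide for 5 of the 6, where that held for 25.5% of genes and the opposite for 30.5%. The genes were chosen on this contrast, so nothing is read from these shares. The median log2 difference of the 6 was -0.58 over all arrays and -0.43 within slide 1, beside -0.05 and 0.0055 for all tested genes. With slide as a block, limma called 0 of the 6, beside 0.0303% of all tested genes (0.0101% lower and 0.0202% higher), and 4 of the 6 at an unadjusted p under 0.05, beside 10.2%. With slide 1 alone, where 1 PBS array stands for its group and is assumed to vary like the IL-4 arrays, it called 0 of the 6, beside 0.00336% of genes, and 4 at an unadjusted p under 0.05, beside 9.58%. Leaving out any 1 array other than PBS 1 also ended the 3 calls, with 5 of the 6 under 0.05 unadjusted beside 19.8% to 27.0% of all genes. Without PBS 1 all 6 were called, beside 42.6% of all genes.

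The pattern of Gpr34 over the 6 arrays was near to those of Ctdsp2, Rbbp9, Mgst2 and Dcp1b, measured as the root mean square distance between log2 levels after each gene was centred on its own mean. The distances were 0.269, 0.287, 0.289 and 0.290 in that order. Mgst2 encodes a microsomal glutathione S-transferase, and its log2 difference was -1.41. Dcp1b encodes an mRNA decapping cofactor (-1.41), Ctdsp2 a small C-terminal domain phosphatase (-1.42) and Rbbp9 a serine hydrolase that binds the retinoblastoma protein (-1.31). Within slide 1 these log2 differences were -1.22 for Mgst2 and Dcp1b, -1.30 for Ctdsp2 and -1.04 for Rbbp9. Among the receptors P2ry6 came nearest to Gpr34, at a distance of 0.416 and rank 45 of 29488 genes measured on all arrays. P2rx7 lay at 0.644, P2ry12 and P2ry13 both at 0.666 and P2rx4 at 0.824. Gpr34 was chosen for this pattern, so the distances are a description.

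Genes within 3 places of the receptors in the RefSeq order were set beside them, and limma called 0 of the 20 tested, beside 3.35% of all tested genes. At an unadjusted p under 0.05, 5 were lower and 1 higher, beside 17.5% and 16.6% of all tested genes. Cask, which overlaps Gpr34 in the RefSeq annotation and encodes a synaptic scaffold kinase, had a log2 difference of -0.29 (-0.02 within slide 1) and did not pass the test (limma adjusted p = 0.17). P2ry2, the ATP and UTP receptor next to P2ry6, had -0.08 (0.12 within slide 1). Other genes near P2ry6, named after their values were seen, lay lower. Fchsd2 had -0.45 (limma adjusted p = 0.075) and -0.23 within slide 1, and Atg16l2 -0.36 (limma adjusted p = 0.084) and -0.19. Fam168a had -0.28 (limma adjusted p = 0.11) and -0.38 within slide 1, and Relt -0.23 (limma adjusted p = 0.18) and -0.16. Around the chromosome 3 cluster, Gpr171 had 0.02 and Igsf10 -0.18 (-0.02 within slide 1), and neither passed. Clrn1, near P2ry14 and also named after its value was seen, had 0.38 (limma adjusted p = 0.067) and 0.26 within slide 1. Camkk2, a calmodulin-dependent kinase kinase that overlaps P2rx4, had -0.44 (limma adjusted p = 0.080), with -0.14 within slide 1, and Ift81 had -0.32 (adjusted p = 0.18), with -0.17 within slide 1.

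Of 73 other genes of the purinergic and lysophospholipid pathways on the array, 69 were tested and limma called 6 lower and 0 higher, beside 2.54% and 0.807% of all tested genes. At an unadjusted p under 0.05, 22 of the 69 were lower and 6 higher, beside 17.5% and 16.6% of all tested genes. Their median log2 difference was -0.18, and -0.04 within slide 1, beside -0.05 and 0.0055 for all tested genes. With slide as a block, limma called 0 of the 69, beside 0.0303% of all tested genes, and 13 were under 0.05 unadjusted, beside 10.2%. Leaving out any 1 array other than PBS 1 also ended the 6 calls (17 to 22 of the 69 under 0.05 unadjusted), and without PBS 1 there were 36, beside 42.6% of all genes.

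No other nucleotide or adenosine receptor passed. Of 6 other P2Y receptors, 5 other P2X subunits and 3 adenosine receptors tested, limma called 0, beside 3.35% of all tested genes. At an unadjusted p under 0.05, 2 were higher and 1 lower, beside 16.6% and 17.5% of all tested genes. P2ry2 had a log2 difference of -0.08 ± 0.13 (SE, limma adjusted p = 0.69), with 0.12 within slide 1. P2ry10b, a mouse paralogue of the lysophosphatidylserine receptor P2ry10, had 0.05 ± 0.10 (adjusted p = 0.74) and a second probe at -0.28. Farther from 0 lay P2ry4, a receptor for UTP, and the ADP receptor P2ry1, both named after their values were seen. P2ry4 had 1.05 ± 0.33 (adjusted p = 0.075) and 0.68 within slide 1, with every IL-4 array above every PBS array, and P2ry1 had -0.44 ± 0.12 (adjusted p = 0.063) and -0.47 within slide 1. The ATP-gated subunit P2rx1 had 0.17 ± 0.11 (adjusted p = 0.30) and 0.006 within slide 1, and P2rx3, a subunit known from sensory neurons, had 0.42 ± 0.19 (adjusted p = 0.16) and -0.04 within slide 1. A second P2rx3 probe, with 10 copies, gave 0.29 over all arrays and 0.08 within slide 1. The adenosine receptor Adora2a, coupled to Gs, had levels of -0.53, -0.63 and -0.80 in IL-4 samples and -0.95, -1.85 and -2.07 in PBS samples (log2 relative to the 75th percentile). Its log2 difference was 0.97 ± 0.26 (SE, limma adjusted p = 0.063) over all arrays and 0.30 within slide 1, and PBS 1 lay 1.01 above the mean of the slide 2 arrays. Adora2b, also coupled to Gs, had -0.11 ± 0.18 (adjusted p = 0.67) and 0.24 within slide 1, and its second probe gave 0.05 ± 0.09 and 0.02.

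Genes that act after receptor binding held 4 of the 6 calls. Of the 16 tested G protein and receptor signalling partners, limma called 4 lower and 0 higher, beside 2.54% and 0.807% of all tested genes. At an unadjusted p under 0.05, 8 were lower and 0 higher, beside 17.5% and 16.6% of all tested genes. The list's median log2 difference was -0.24. Rgs2, which speeds the switching off of Gq, fell to a level of 0.18 ± 0.14 in IL-4 samples, against 1.24 ± 0.25 in PBS samples (SD, n = 3 each, log2 relative to the 75th percentile). Its log2 difference was -1.06 ± 0.15 (SE, limma adjusted p = 0.026), and -0.81 within slide 1. The second Rgs2 probe gave -1.20 ± 0.18, but it was dim, with signals of 13.2, 17.0 and 13.3 units in IL-4 samples. It was well above background on 2 of 3 IL-4 and 3 of 3 PBS arrays, so it entered the test through the PBS arrays alone. Gnaq, the Gq α subunit itself, had a log2 difference of -0.64 ± 0.12 (SE, limma adjusted p = 0.040) and -0.47 within slide 1. The β-arrestin gene Arrb1 had -0.60 ± 0.12 (adjusted p = 0.043) and -0.45 within slide 1, and Grk2, a kinase that phosphorylates active receptors, had -0.54 ± 0.10 (adjusted p = 0.043) and -0.40 within slide 1. For all 4 genes, named because limma called them, every IL-4 array lay below every PBS array, which held for 20.0% of the genes measured on every array. PBS 1 lay below the mean of the slide 2 arrays by 0.37 for Rgs2, 0.26 for Gnaq, 0.23 for Arrb1 and 0.21 for Grk2. Their part in the receptor values was not tested.

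The remaining 2 calls were an adenosine transporter and a sphingosine-1-phosphate receptor, where limma called 2.54% of all tested genes lower. Slc29a1, which carries adenosine across the plasma membrane, was the 1 call among 10 tested enzymes and transporters, with a log2 difference of -0.52 ± 0.11 (SE, limma adjusted p = 0.0495) and -0.36 within slide 1. S1pr1 was the 1 call among 17 tested lysophospholipid receptors and lysophosphatidylserine enzymes, with -0.78 ± 0.13 (adjusted p = 0.035) and -0.55 within slide 1. The medians of these lists were -0.27 and -0.17. Of 4 tested genes of nucleotide release limma called 0. At an unadjusted p under 0.05, 2 were lower and 0 higher, beside 17.5% and 16.6% of all tested genes. The ATP-release channel Panx1 had a log2 difference of -0.35 ± 0.12 (limma adjusted p = 0.085) and -0.22 within slide 1, and the volume-regulated channel subunit Lrrc8a had -0.42 ± 0.17 (adjusted p = 0.13) and -0.02 within slide 1, with a second probe at 0.26. Of 8 tested P2X7-linked channels and inflammasome genes limma called 0, and the median was 0.11. At an unadjusted p under 0.05, 2 were lower and 2 higher, beside the same 17.5% and 16.6%. Casp1, the protease that matures interleukin-1β, had 0.13 ± 0.11 (adjusted p = 0.42) and 0.12 within slide 1, and the potassium channel Kcnk13 had 0.54 ± 0.15 (adjusted p = 0.066) and 0.23 within slide 1.

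**Figure D4:**
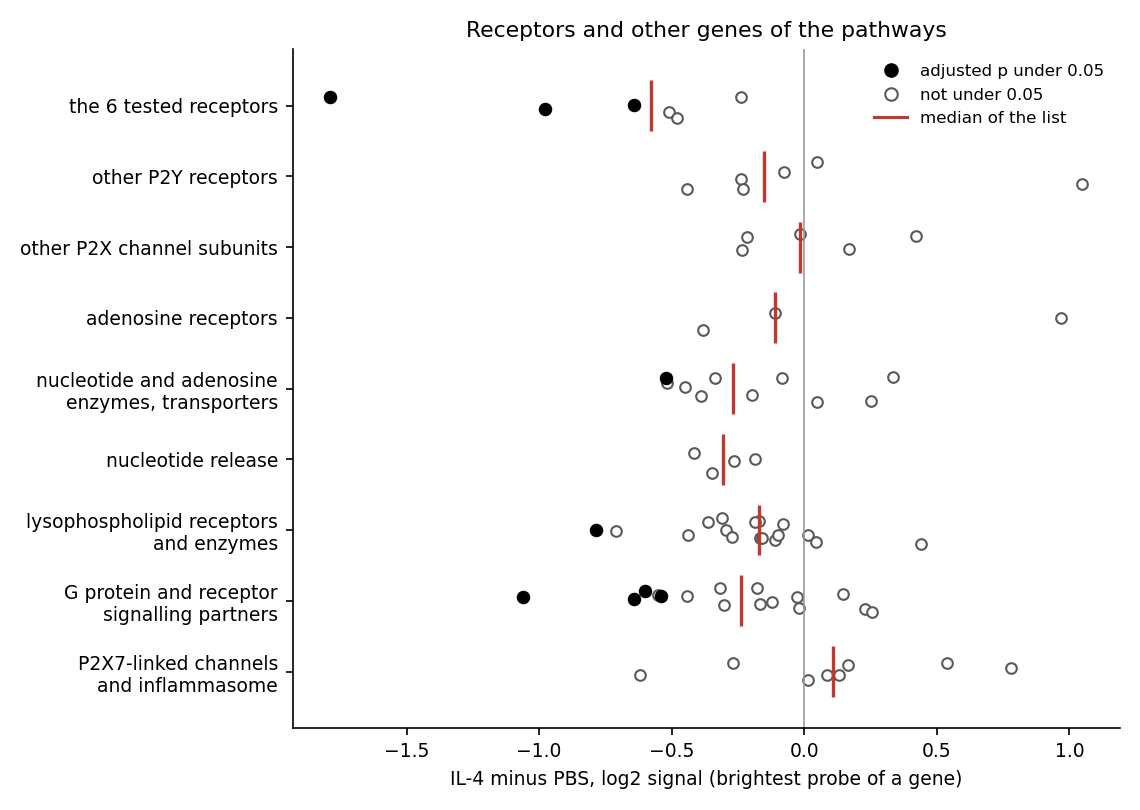
Log2 difference, IL-4 minus PBS, of the 6 tested receptor genes and of the 69 tested genes of the related lists, with 1 point per gene, filled where limma's adjusted p over all tested genes was under 0.05, and a bar at each list's median. The medians run from -0.58 for the 6 receptors to 0.11 for the P2X7-linked list, and no filled point lies above 0.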

How the data were processed

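The authors deposited single-colour scanner output with intensity values for each spot, per the file headers from version 11.0.1.1 of Agilent Feature Extraction with annotation build mm9. The deposited processed intensity is background subtracted and detrended within an array. The authors also deposited a log2 value table with the same median, 6.92, in every column; the normalization method is not stated in these sources, and it served as an alternative. Feature coordinates were not used. Probe targets were named through RefSeq accessions, which matched 27234 of 39429 probes, and promoter sequences are RefSeq's (GRCm38.p6).

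The log2 of the processed intensity minus each array's 75th percentile was computed after control and outlier-flagged spots were left out. Copies of a probe were averaged, a probe entered the test when all 3 arrays of IL-4 or all 3 of PBS had it well above background, and each gene was read from its brightest probe. IL-4 and PBS were compared with limma 3.58.1 in R 4.3.3 (lmFit, eBayes) over 29752 genes, with Benjamini-Hochberg adjustment and a threshold of 0.05. The fit was tested on simulated arrays that varied independently and held no slide effect, so that test does not bear on the slides. Arrays whose file headers hold the same scan date were taken as 1 slide.

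The genes, lists and tests were chosen with earlier results of these data known. Named genes were every receptor with every probe, the called members of each list or otherwise its up to 2 brightest tested members, and the 5 genes with a symbol nearest to Gpr34, of which 1 is not reported here. Markers of 8 cell types were given as counts. Alternatives covered background, scaling, filter, probe choice, slide, replicate number, array weights and each array left out. Normexp (offset 50) used spot medians in place of the planned spot means, which were not used here. An exact permutation test of 3 against 3 arrays cannot give a p below 0.10, and none was run.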

Additional observations from a re-analysis of the deposited data

How the results depend on the processing

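All 120 values of the 6 tested receptor genes under the 20 alternatives were below 0. Gpr34 ranged from -1.92 to -1.03 on the log2 scale, P2ry6 from -1.06 to -0.56, P2rx7 from -0.71 to -0.36, P2ry12 from -0.59 to -0.35, P2ry13 from -0.56 to -0.21 and P2rx4 from -0.35 to -0.07. Limma's adjusted p for the receptors, chosen on this contrast, is not read as a test, but which receptors it called depended on the setting, and the causes below were not tested.

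Against 997 called genes, 3 called receptors and 6 called pathway genes, limma called 2637, 5 and 13 with quantile normalization, 2299, 5 and 13 with the authors' table, and 3808, 5 and 16 with only probes well above background on all arrays. With normexp and the 75th percentile it called 4117 genes and 15 pathway genes, with normexp and quantile normalization 3142 and 15, and with local background subtraction, chosen after seeing the data, 2986 and 12. Median scaling gave 1733 genes and 5 receptors. Array weights gave 14252 genes, 6 receptors and 38 pathway genes. Scaling by a 75th percentile that used only probes well above background gave 523 genes and 3 pathway genes, and the mean of a gene's probes 605 genes. Without a filter there were 15 genes, 0 receptors and 0 pathway genes, with 9653, 6 and 25 at an unadjusted p under 0.05. The share of calls that were lower was 75.9% (757 of 997), against 50.5% with normexp and the 75th percentile, 51.4% with local background subtraction and 51.9% with probes well above background on all arrays.

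With slide as a block limma called 9 genes, 0 receptors and 0 pathway genes (3037, 4 and 13 at an unadjusted p under 0.05), and with slide 1 only 1, 0 and 0 (2849, 4 and 12). Leaving out 1 array gave 0 to 12657 genes, 0 to 6 receptors and 0 to 36 pathway genes. The high ends came without PBS 1, when slide and group cannot be told apart; without any 1 of the other 5 arrays at most 3 genes, 0 receptors and 0 pathway genes were called, with 5 receptors at an unadjusted p under 0.05 each time.

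Whether the replicate numbers pair the samples cannot be told from 3 arrays of a group, whose deviations from their mean are tied to each other. Deviations of same-numbered arrays correlated at 0.083, -0.016 and 0.296 over genes. IL-4 1 and IL-4 3 correlated best with their own number, and IL-4 2 with PBS 1 (0.035). With the replicate block limma called 3770 genes (52.1% lower), 5 receptors and 14 pathway genes.

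Among named pathway genes, none of them called, Adora2b turned to 0.24 on the log2 scale with slide 1 only or slide as a block and to 0.011 without IL-4 3 (-0.29 to 0.011 over the arrays left out). P2ry2 turned to 0.12 with slide 1 only or slide as a block and to 0.025 without PBS 2 (-0.17 to 0.025). P2rx3 turned to -0.038 with slide 1 only or slide as a block, Casp1 to -0.016 with normexp and quantile normalization, and P2ry10b to -0.12 with the mean of probes. Low signal over background limits the values of Gpr34, P2ry6, P2ry13 and P2ry14.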
